A study of Apis mellifera with 4 samples.

Results

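The array of antennal genes described here carried 5 lipocalins among its 313 honey bee genes, and all 5 were measured. The members are the genes whose printed name starts with AmLip, AmLip1 to AmLip5, each spotted 2 times on each of 4 two-colour arrays. Each array set drone antennae against worker antennae. The drones were mature males and the workers were females, both taken at the entrance of the hive and neither treated, and every RNA pool held 50 sets of whole antennae from a separate collection. No strain, age or colony is named in the labels. By the label fields the drone pool carried Cy3 on arrays 1 and 3 and Cy5 on arrays 2 and 4. Whole antennae mix neurons, support cells and cuticle, so fewer cells of a type and less RNA per cell cannot be told apart in any value below.

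Lipocalins are small, mostly secreted proteins that fold into a beta-barrel with an internal pocket for a hydrophobic molecule. The family includes retinol-binding protein, apolipoprotein D and the odorant-binding proteins of mammals, the bilin-binding proteins of moths and butterflies, and the fruit fly proteins NLaz and GLaz, which act in lipid handling and stress resistance. Insect odorant binding proteins do similar carrier work in the antenna but are helical proteins of an unrelated family. Which of the known insect lipocalins each AmLip name stands for was not given in the files, so no role is assigned to a single member, and no position or sequence of these genes was used here.

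The files show 1 lipocalin with a clear sex difference, 1 with a smaller lean that did not pass the test, and 3 without a difference that held across the arrays. AmLip1 was 2.99-fold higher in drone antennae. AmLip3 leaned to drone on every array but was not called. AmLip2, AmLip4 and AmLip5 had mean log2 ratios of drone over worker of -0.13, -0.002 and -0.05. After loess the sign of their ratios followed the dye of the drone pool. That sign rested on values as small as 0.005 for AmLip2 on array 4 and 0.01 for AmLip4 on array 2.

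Signal was read as the median pixel of a spot minus its local background, averaged over the 2 spots of a gene, in scanner units that end at 65535. It was set against a threshold taken from the negative control oligonucleotides of the same channel and array, their mean plus 2 SD. The control oligo 4 was bright on all arrays, and the threshold was computed with and without it. With oligo 4 in the threshold, AmLip1 was above it on 4 arrays in drone and 3 in worker, and no other lipocalin was above it on any array. The statements that follow leave oligo 4 out. With 4 arrays, the precision of each value is limited. The channels of an array were not equally bright as a whole. The median signal on arrays 1 to 4 was 464, 46.5, 576 and 172.5 for drone and 222.5, 110.5, 605 and 640 for worker. Signals and ratios before normalization are not corrected for this.

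The AmLip1 signal was 41782, 10760, 46988 and 31581 in drone antennae on arrays 1 to 4. In worker antennae it was 12032, 3745, 16211 and 5106 on the same arrays. Both sexes were far above the negative controls on every array, by 48.2 to 181 times the threshold in drone and 10.5 to 45.8 times in worker. The drone signal was the higher one on each array, by 3.47, 2.87, 2.90 and 6.19 times before any normalization.

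The AmLip3 signal was 1851, 390.5, 1593 and 1213 in drone antennae on arrays 1 to 4, against 1128, 339, 1976 and 660.5 in worker antennae. It was above the threshold on 4 of 4 arrays in both sexes, by 1.63 to 6.56 times in drone and 1.36 to 4.14 times in worker. Before normalization the drone signal was higher on arrays 1, 2 and 4 and the worker signal on array 3. AmLip2 had 484, 148.5, 1278 and 629.5 in drone and 368.5, 179.5, 2290 and 874 in worker. It was above the threshold on 3 arrays in each sex, all but array 1, and never by more than 2.50 times.

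AmLip4 and AmLip5 were close to the negative controls or below them. AmLip4 had 470.5, 63, 324.5 and 146 in drone antennae and 412.5, 126.5, 457 and 289.5 in worker antennae, above the threshold on array 2 alone in each sex. AmLip5 had 295.5, 23, 362.5 and 190 in drone and 222, 50, 686.5 and 385.5 in worker. It was not above the threshold on any array in either sex, which does not show that its transcript was absent. Its normalized ratios are given further on as measured values near background, with no fold.

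**Figure D1:**
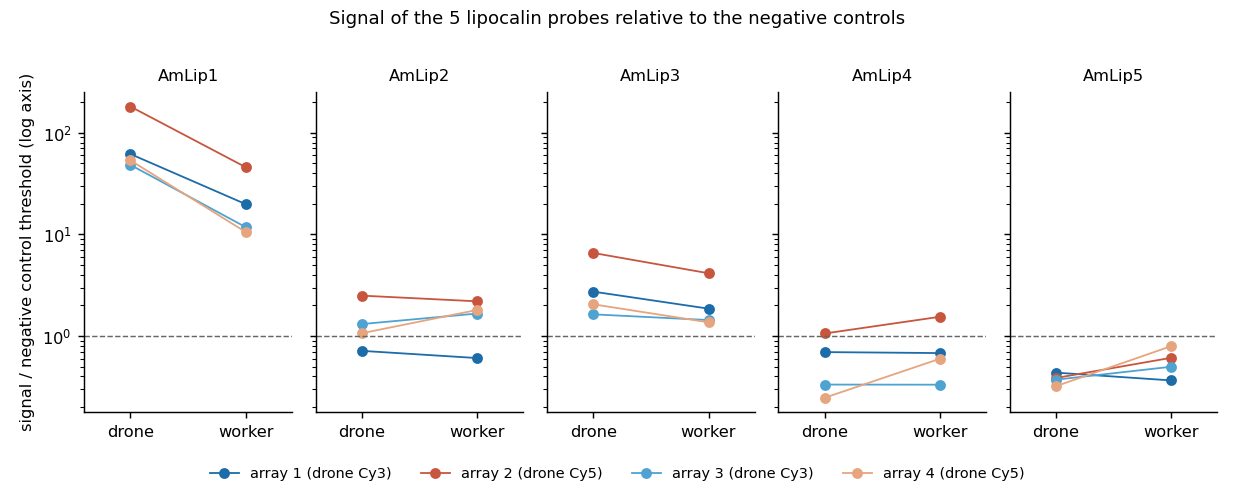
Signal of each lipocalin divided by the negative control threshold of the same channel and array (log axis), with drone at the left and worker at the right of each panel. Each line is 1 of 4 arrays and the dashed line is the threshold. AmLip1 lies between 10.5 and 181 times the threshold, AmLip3 is above it on all arrays, and AmLip5 is below it on all arrays.

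Ratios were compared after loess normalization within each array, which brings the drone over worker log ratios to a centre of 0 at each brightness. The log2 ratios of AmLip1 were 1.69, 1.38, 1.67 and 1.58 on arrays 1 to 4, or 3.23, 2.60, 3.18 and 2.98 times as a ratio. Their mean was 1.58 ± 0.16 (limma standard error, n = 4 arrays), a 2.99-fold higher level in drone with a 95% interval of 2.31 to 3.87. The limma p adjusted over all genes was 9.87e-04. All 4 arrays had the same direction, and an exact permutation test by sign flips, two-sided, gave p = 0.125, the smallest that 4 arrays allow.

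Of the 5 lipocalins, 1 was called at an adjusted p under 0.05, toward drone, against 11.9% of all genes in either direction. By direction, 4.5% of the 311 genes tested were toward drone and 7.4% toward worker, 14 and 23 genes. The median log2 ratio was -0.002 over the lipocalins and 0.02 over all genes. The drone and worker shares depend on the scaling: median centring without loess gave 5 and 4 genes, and no normalization gave 4 and 13. AmLip1 ranked 7th of 311 from the drone side by its ratio and 9th by its p.

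AmLip1 also varied little between arrays after loess, while before loess its log2 ratios ran from 1.36 to 2.62. The SD of its normalized log2 ratio over the 4 arrays was 0.14, the 23rd lowest of 311 genes. Its normalized log2 levels, with average intensities brought to common quantiles after loess, were 14.5 ± 0.35 in drone and 13.0 ± 0.23 in worker (SD, n = 4). They ran from 14.1 to 14.9 in drone and from 12.7 to 13.2 in worker, without overlap. It was the only 1 of the 5 lipocalins without overlap, where 4.82% of all genes lay wholly higher in drone and 7.07% wholly higher in worker.

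The 2 spots of AmLip1 differed in brightness more than in ratio. On array 1 they had 56748 and 26815 in drone and 16728 and 7336 in worker, with log2 ratios of 1.69 and 1.70. On array 2 they had 17517 and 4002 in drone and 5624 and 1865 in worker, with 1.61 and 1.15. That gap of 0.46 was the widest of AmLip1 on any array. The SD of a single spot over all genes was 0.17 to 0.21. The SD of a gap between 2 spots is larger than that by the square root of 2. In the drone channel 42% of the pixels of 1 spot were saturated on array 1, 11% and 10% on array 3 and 9% of 1 spot on array 4. The worker channel had no saturated pixel. With spots of over 10% saturated pixels left out, the mean log2 ratio was 1.35 (adjusted p = 0.00310, limma). In the fit as reported, the AmLip1 spots left out on arrays 1 and 3 had log2 ratios of 1.69 and 1.66. The spots kept on those arrays had 1.70 and 1.68. Loess was also refitted without such spots of any gene, and the source of the lower mean was not tested.

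The log2 ratios of AmLip3 were 0.37, 0.56, 0.15 and 1.07 on arrays 1 to 4, all toward drone. Their mean was 0.54 ± 0.20 (limma standard error, n = 4 arrays), a ratio of 1.45 with a 95% interval of 1.04 to 2.02 that is not corrected for the number of genes. The unadjusted p was 0.0321 and the adjusted p 0.169 (limma), so AmLip3 was not called. The same direction on all 4 arrays was seen toward drone in 15.1% of all genes and toward worker in 17.7%. The normalized levels overlapped slightly, at 9.97 to 10.4 in drone and 9.28 to 10.00 in worker. On array 3 the drone signal was lower than the worker signal before loess, and array 3 also had the lowest normalized ratio. Array 4 carried the highest, and without array 4 the mean was 0.36 (adjusted p = 0.265).

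**Figure D2:**
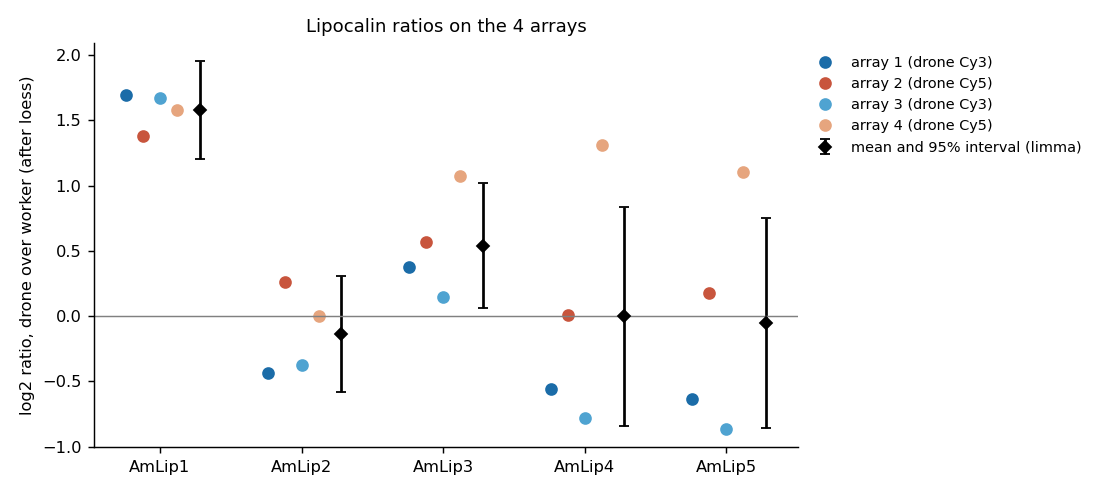
Log2 ratio of drone over worker after loess for each lipocalin, with 1 point per array (blue shades for drone in Cy3, red shades for drone in Cy5) and, at the right of each set, the mean with limma's 95% interval. The AmLip1 points lie between 1.38 and 1.69, all AmLip3 points are above 0, and the points of AmLip2, AmLip4 and AmLip5 lie on both sides of 0 by dye. AmLip2 on array 4 and AmLip4 on array 2 are barely above 0.

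AmLip2 had log2 ratios of -0.43, 0.27, -0.37 and 0.01 on arrays 1 to 4. Its mean was -0.13 ± 0.19 (adjusted p = 0.800, limma, n = 4 arrays), with a 95% interval for drone over worker of 0.67 to 1.24 times. AmLip4 had -0.55, 0.01, -0.78 and 1.31, with a mean of -0.002 ± 0.35 (adjusted p = 1) and an interval of 0.56 to 1.79 times. AmLip5 had -0.63, 0.18, -0.86 and 1.10, with a mean of -0.05 ± 0.34 (adjusted p = 0.961). These intervals leave room for a difference of either sign, widest for AmLip4 and AmLip5.

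After loess, all 3 genes leaned to worker on the arrays with drone in Cy3 and to drone on those with drone in Cy5. The lean was only 0.005 for AmLip2 on array 4 and 0.01 for AmLip4 on array 2, where the 2 spots had opposite signs. In the log2 ratios that the authors deposited, turned to drone over worker, these values were -0.001 and -0.05. By those ratios, AmLip5 alone of the 3 genes split by dye on all 4 arrays. The means of the paired orientations, drone in Cy5 and drone in Cy3, were 0.66 and -0.67 for AmLip4, 0.64 and -0.75 for AmLip5 and 0.14 and -0.40 for AmLip2. A split of all 4 arrays by dye was seen in 22.5% of all genes, in 11.2% of the 107 genes above the negative controls on at least 3 arrays in either sex and in 28.4% of the other genes. In a limma fit with a dye coefficient, Cy5 over Cy3 was 0.66 ± 0.23 for AmLip4 (unadjusted p = 0.0181, adjusted p = 0.186) and 0.69 ± 0.20 for AmLip5 (0.00770 and 0.184). It was -0.10 ± 0.17 for AmLip1, and 0.27 ± 0.17 and 0.28 ± 0.18 for AmLip2 and AmLip3. No gene of the array passed the adjusted threshold for dye, and 17% passed it unadjusted, 53 of 311 genes.

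The normalized sign of the dim members also differed from the sign before loess. Before loess, the log2 ratios of AmLip4 were 0.11, -0.44, -0.35 and -0.35 and those of AmLip5 were 0.21, -0.16, -0.73 and -0.50. Loess turned the sign on arrays 1, 2 and 4 in both, and moved array 4 by 1.67 for AmLip4 and 1.60 for AmLip5. On that array the signals of both genes were below the negative control threshold in both sexes. The worker signal was above the drone signal as scanned, and the normalized ratio was toward drone. The whole drone channel was dimmer there, with a median signal of 172.5 against 640 in the worker channel. AmLip2 changed sign on arrays 1, 2 and 4 and AmLip3 on array 3. AmLip1 kept its sign on all 4 arrays, and its largest shift, on array 4, took it from 2.62 before loess to 1.58 after.

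**Figure D3:**
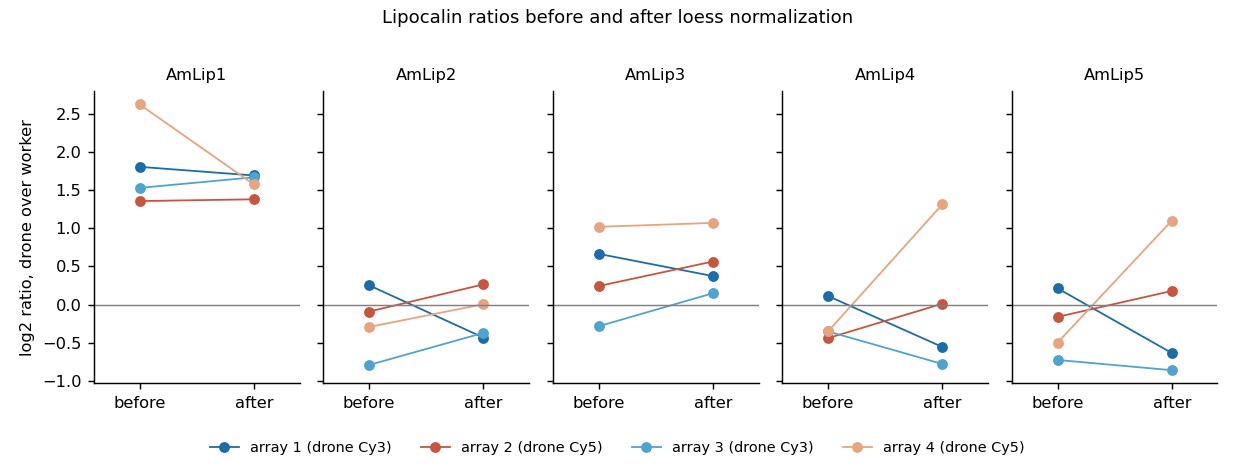
Log2 ratio of drone over worker for each lipocalin before (left) and after (right) loess, with 1 line per array, both after background correction. The lines of AmLip1 lie between 1.36 and 2.62, while array 4 moves from -0.35 to 1.31 in AmLip4 and from -0.50 to 1.10 in AmLip5.

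Within the family, AmLip1 was the member most toward drone on each of the 4 arrays. Its log2 ratio exceeded those of AmLip2, AmLip3, AmLip4 and AmLip5 by 1.71, 1.04, 1.58 and 1.63 on average, and by at least 0.26 on any array. The differences from AmLip4 and AmLip5 rest on signals near or below the negative controls, above the threshold on 1 array for AmLip4 and on none for AmLip5. AmLip3 exceeded AmLip2 on 4 of 4 arrays, by 0.67 on average. Each of these 5 differences had p = 0.125 in that exact permutation test, the smallest it can give, so none can reach 0.05. AmLip4 and AmLip5 followed each other closely after loess, with a root mean square difference of 0.15 over the 4 arrays. The median between AmLip4 and the 303 other genes measured on all arrays, bright ones included, was 0.94. On arrays 1 to 4 loess had moved AmLip4 by -0.67, 0.45, -0.43 and 1.67. It had moved AmLip5 by -0.85, 0.34, -0.13 and 1.60. The part of these shifts in the likeness was not tested.

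The root mean square difference counts the mean ratio of a gene as well as its changes between arrays. By this measure the genes nearest to AmLip1 were the odorant receptors AmOr078 and AmOr064, at distances of 0.32 and 0.38. Those nearest to AmLip3 were the odorant binding protein AmOBP07 at 0.12 and the tetraspanin AmTspan07 at 0.18. AmLip2 was nearest to AmOr003 and AmOr116, at 0.16 and 0.17. AmOr034 was the second nearest to both AmLip4 and AmLip5, at 0.15 and 0.16, after each other. AmOr034 had log2 ratios of -0.58, 0.02, -0.60 and 1.08 on arrays 1 to 4, with the same split by dye. Of these neighbours, AmTspan07, AmOr003, AmOr116 and AmOr034 were not above the negative controls on at least 3 arrays in either sex. Likeness to them thus rests partly on ratios near or below the negative controls.

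**Figure D4:**
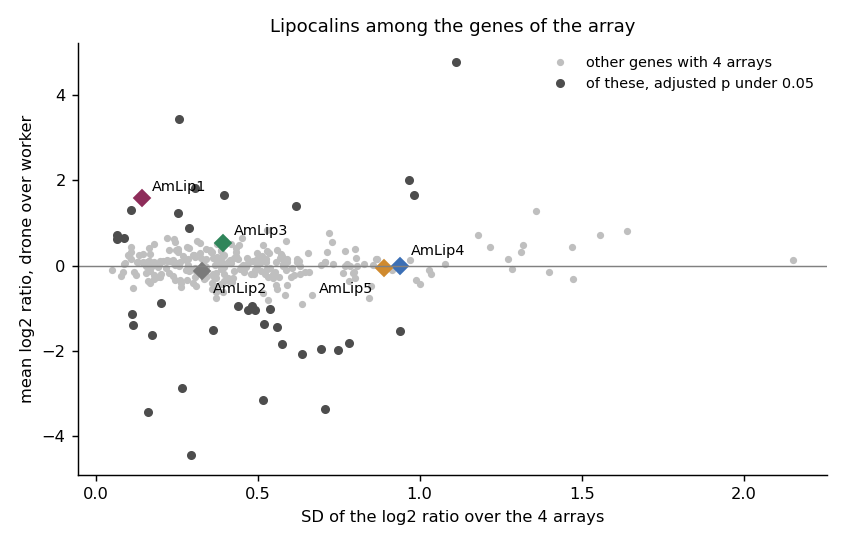
Mean log2 ratio of drone over worker against the SD of the ratio over the 4 arrays, for each gene measured on all arrays, with the lipocalins as diamonds. AmLip1 lies at 1.58 with an SD of 0.14, and AmLip4 and AmLip5 lie near 0 with SDs of 0.94 and 0.89.

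The other soluble carrier families of the array gave their calls on the worker side. Of 19 odorant binding proteins, 7 were called higher in worker and 0 in drone (limma, with 10 at an unadjusted p under 0.05), with a median log2 ratio of -0.29, where 7.4% of all genes were called toward worker. Of the 6 genes named AmCg, taken as the chemosensory proteins, 5 could be tested and 1 was higher in worker, with a median of -0.36. Without loess, the worker calls were 1 and 0 in these families under median centring and 3 and 0 under housekeeping centring. They were 5 and 1 under non-receptor centring without loess, and also 5 and 1 with no normalization. The lipocalins held 1 call, toward drone, and whether the families differ was not tested. The 4 housekeeping genes (AmCytoActin, AmEF1alpha, AmRP49 and AmRPS3) lay between -0.21 and 0.05, none of them called (smallest adjusted p = 0.531, and 0 at an unadjusted p under 0.05). The 5 opsins, visual and non-visual ones taken as markers of eye or head tissue, were above the negative controls on 1 array at most in drone and on 2 at most in worker. The antennal genes AmOr002, AmOBP01, AmOBP02 and AmSNMP were above them on 4 of 4 arrays in both sexes.

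Over the whole array, log ratios correlated across genes at r = 0.77 between arrays 1 and 3 and 0.73 between arrays 2 and 4, the pairs of the same dye orientation. Between arrays of opposite orientation r was 0.78 for 1 and 2, 0.70 for 2 and 3, 0.42 for 1 and 4 and 0.40 for 3 and 4. Arrays 3 and 4 shared a slide. On that slide alone the mean log2 ratio was 1.62 for AmLip1, 0.61 for AmLip3, -0.18 for AmLip2, 0.27 for AmLip4 and 0.12 for AmLip5. Without array 4, AmLip1 had 1.58 (adjusted p = 2.64e-04, limma), while AmLip4 and AmLip5 had -0.44 each (adjusted p = 0.222 and 0.265). The part of array 4 in these values was not tested further.

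Whether the AmLip1 difference holds outside 1 way of processing was examined under 24 other settings with the dyes of the label fields. AmLip1 was toward drone under all 24 and passed the threshold under 22, with mean log2 ratios of 1.35 to 2.02. It missed the threshold under median centring (2.02, adjusted p = 0.0812) and housekeeping centring (1.68, adjusted p = 0.208), both without loess. Also without loess, it passed under non-receptor centring (1.86, adjusted p = 0.0225, limma) and with no normalization (1.83, adjusted p = 0.0355, limma). With the other dyes that the labelling protocols spell out for arrays 2, 3 and 4, which would not give the even dye swap of the design text, AmLip1 had -0.73 (adjusted p = 0.841) and no gene of the array was called (limma). AmLip3 was toward drone under all 23 settings that tested it with the label-field dyes and passed under none, with adjusted p from 0.0593 to 0.995.

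**Figure D5:**
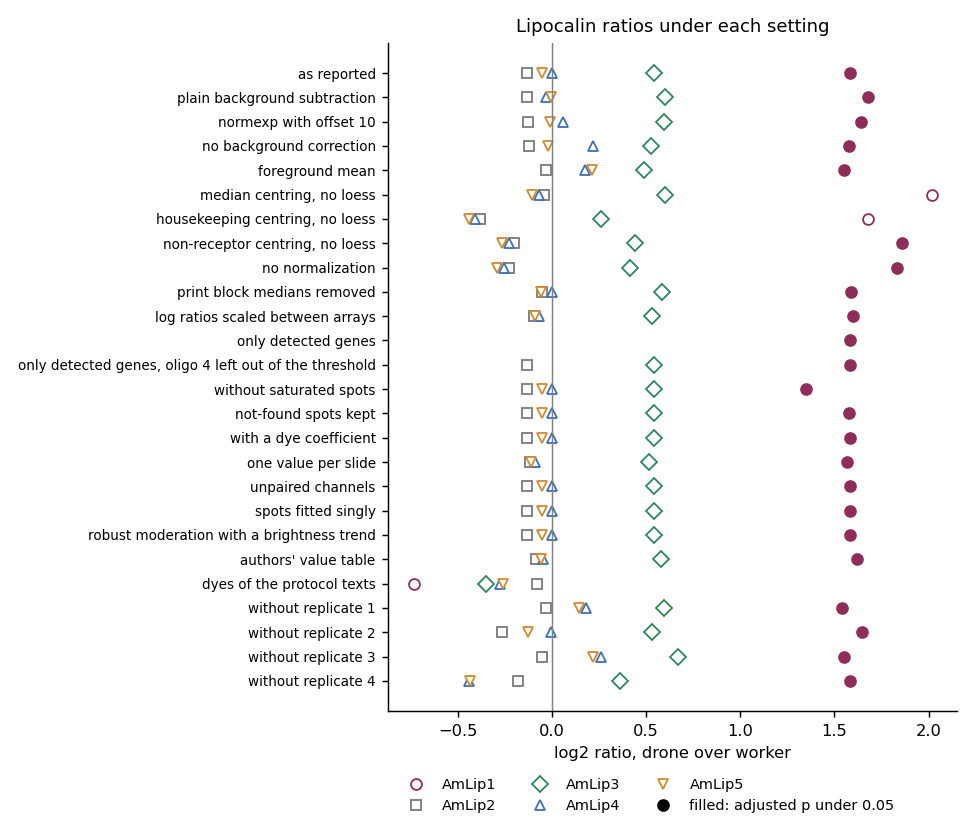
Mean log2 ratio of drone over worker of the 5 lipocalins (symbols) under each setting (rows), filled where the adjusted p was under 0.05. AmLip1 stays between 1.35 and 2.02 except with the dyes of the protocol texts, where it is at -0.73, and no other lipocalin is filled under any setting.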

How the data were processed

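Antennal RNA of honey bee drones and workers was compared on 4 two-colour arrays of 70-base oligonucleotides, with 20 µg of total RNA per pool per the labels. The authors deposited scanner files whose spot intensity values are not normalized, with the Cy5 channel at 635 nm and Cy3 at 532 nm, per the file headers. The percent of saturated pixels and a quality score (flag) per spot are also as deposited. A table of log2 ratios that the authors deposited, of unstated normalization, ran as worker over drone (correlations with the ratios here of 0.98, 0.91, 0.94 and 0.98 on arrays 1 to 4 after turning, with column medians of -0.02, -0.09, -0.06 and 0.08) and served as an alternative. The scanner software is not given in the sources used here.

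Dyes were taken from the label fields. Foreground medians were corrected with normexp (offset 50) and loess-normalized per array in limma 3.58.1 and R 4.3.3, with weight 0 for control spots. Spots with the flags -75 (absent) or -50 (not found) were left out, and no lipocalin spot had a flag. Each gene took the mean of its 2 spots, every ratio was expressed as drone over worker, and a mean over 4 arrays was fitted with lmFit and eBayes, with Benjamini-Hochberg adjustment over the 311 genes with a spread. The fit was tested on simulated data that held no dye effect of single genes, so its behaviour under such effects was not tested. AmOr002, AmOBP01, AmOBP02, AmSNMP and the opsins were picked as tissue markers. The other named genes were the 5 lipocalins, the housekeeping genes and, for each lipocalin, the 2 genes with the smallest root mean square difference over the arrays. A gene without its ratio on all arrays was not set against a lipocalin in this way. The pairing of drone and worker pools is that of the arrays. Nothing beyond the statement of independent pools says how the collections differed. The members, lists and tests were chosen with earlier results of these data known.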

Additional observations from a re-analysis of the deposited data

Results flagged for a closer look

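Among 15 sets of 4 array values (the ratio, the drone level and the worker level of each lipocalin), 2 held an array that stood apart from the other 3, where chance alone marks about 1 set in 20. The normalized drone level of AmLip3 was 9.97 on array 3, below 10.3 to 10.4 on the others. The normalized drone level of AmLip5 was 8.56 on array 4, above 7.82 to 7.92 on the others.

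In 3 lipocalins the sign of the mean drone over worker ratio after loess was opposite between the dye orientations. With drone in Cy5 the mean log2 ratio was 0.14 for AmLip2, 0.66 for AmLip4 and 0.64 for AmLip5, and with drone in Cy3 it was -0.40, -0.67 and -0.75. The difference was tested by limma's dye coefficient, with adjusted p of 0.416, 0.186 and 0.184.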

How the results depend on the processing

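With the label-field dyes AmLip2 was negative under all 23 other settings that tested it, with adjusted p from 0.548 to 1. AmLip4 was positive under 5 of 22 settings: 0.056 with a normexp offset of 10, 0.22 without background correction, 0.17 with foreground means, 0.18 without array 1 and 0.26 without array 3. AmLip5 was positive under 3 of 22: 0.21 with foreground means, 0.14 without array 1 and 0.22 without array 3. The cause was not tested. Leaving out 1 array in turn gave -0.44 to 0.26 for AmLip4 and -0.44 to 0.22 for AmLip5. It gave 1.54 to 1.65 for AmLip1, called each time (adjusted p up to 0.0180), 0.36 to 0.67 for AmLip3 and -0.27 to -0.03 for AmLip2. Averaging the arrays of the shared slide, a choice made after seeing the data, gave 1.57 for AmLip1. Slide as a random block could not be fitted, since limma gave no correlation for 4 arrays on 3 slides. The ratios pair the drone and worker pools of an array, and with unpaired channels AmLip1 still passed (adjusted p = 0.00174).

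AmLip1 had 2.02 (adjusted p = 0.0812) under median centring and 1.68 (0.208) under housekeeping centring. The count of lipocalins higher in drone was 0 under median centring, housekeeping centring and the dyes of the protocol texts. The count over all genes, 37, was 9 under median centring, 7 under housekeeping centring, 21 under non-receptor centring, 17 without normalization, 24 among the 35 detected genes and 24 with unpaired channels. It was 0 with the dyes of the protocol texts and 21 to 43 when 1 array was left out, namely 22, 21 and 23 without arrays 1, 2 and 3. The median over all genes was -0.25 with housekeeping centring and -0.10 without normalization, and relative to it AmLip1 had 1.93 under both and AmLip3 0.51. Odorant binding proteins higher in worker, 7, were 1 under median centring, 3 under housekeeping centring and 0 with the protocol-text dyes, and 1 was higher in drone when either detection filter was set. The AmCg count of 1 was 0 under median centring, housekeeping centring and the protocol-text dyes. With those dyes AmLip1 had -0.73 and AmLip3 -0.35.

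Among the genes named for their likeness, the protocol-text dyes gave -0.71 for AmOr078, -0.67 for AmOr064, -0.42 for AmOBP07 and -0.37 for AmTspan07. With foreground means AmOr003 had 0.028, AmOr116 0.084 and AmOr034 0.14. AmOr034 also had 0.060 with plain subtraction, 0.095 with offset 10, 0.073 under median centring and 0.016 from the authors' deposited table. Leaving out 1 array in turn gave -0.22 to 0.11 for AmOr003, -0.20 to 0.018 for AmOr116 and -0.38 to 0.17 for AmOr034. Signal near the negative controls limits AmLip4 and AmLip5.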
